A study of Mus musculus with 4 samples.

Results

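Rab GTPases, vesicle coat subunits, Vps proteins and sorting nexins carry cargo between the compartments of a cell, and their expression was examined in the postnatal day 6 mouse lens after loss of Celf1. The genes were chosen by name. Probes were taken whose symbol was Rab followed by a number, or began with Sec22, Sec23, Sec24, Sec31, Vps, Snx, or Cop followed by a, b, e, g or z. The rule found 278 probes for 148 genes. Of these, 182 probes for 119 genes were above background on at least 2 of 4 arrays and were tested, among 11511 genes tested in all. For 6 of the 119 genes, the value also averages probes of the same gene whose symbol did not meet the rule. The other 29 genes were not tested. They had 43 probes, of which 37 were above background on no array and 6 on 1 array. At the edge of this filter, the second-lowest detection p of the last probes kept was 0.04701 (Rab25), 0.04487 (Rab11fip3) and 0.04274 (Snx27), and that of the first probes left out was 0.05235 (a probe of Rab3gap2), 0.06197 (Rab23) and 0.06197 (a probe of Rab3b).

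Celf1 encodes an RNA-binding protein. The Celf1 cKO mice carried a germline null allele of Celf1 (a lacZ knock-in), a conditional allele with loxP sites around exon 5, and the Pax6GFPCre transgene, which is active from the lens placode onward in the lens and pancreas lineages. The Control mice were heterozygous for the lacZ knock-in (Celf1 lacZKI/+), so that both groups had 1 null allele. Whether the Control mice carried the Cre transgene is not given in the sources used here. The strain background was a mixture (C57BL/6, FVB), and each array held the RNA of 1 lens. The groups had 2 lenses each, replicates A and B.

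Rab GTPases are switches that mark the identity of a membrane, and in their GTP-bound form they recruit the motors, tethers and fusion factors of that membrane. The COPII coat (Sec23, Sec24, Sec31) buds vesicles from the endoplasmic reticulum, the COPI coat returns them from the Golgi, and Sec22 proteins help them to fuse. In the endosomal system, Vps proteins build the retromer coat, the ESCRT machinery and the HOPS and CORVET tethers, and sorting nexins bind endosomal lipids through a PX domain. Lens fiber cells make large amounts of membrane protein as they elongate and later degrade their endoplasmic reticulum, Golgi and other organelles, so both routes are used in this tissue.

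All 11 lens markers tested were above background on all 4 arrays. Bfsp2 (-0.76) and Foxe3 (-0.79) were called reduced, beside 5.64% of all genes, and the other 9 were not called. Groups overlapped for Crybb1, Crybb2, Crygs and Mip, which lay near the top of the scale with equal values on at least 2 arrays. Celf1 itself had a normalized log2 signal of 7.45 and 6.95 in cKO A and B and 8.71 and 8.55 in Control A and B, a reduction by 1.43 ± 0.19 on the log2 scale (limma, adjusted p = 0.0098). Signal remained in the cKO lenses. The positions of the 4 Celf1 probes relative to exon 5 were not examined, so transcripts with and without it are not told apart here. Xist was at least 6.09-fold higher in the cKO lenses, at 7.42 and 7.27, and was not above background on the Control arrays. Ddx3y of the Y chromosome fell by 3.09 ± 0.55 on the log2 scale, but the cKO lenses differed, at 6.81 in A and 4.82 in B, against 8.99 and 8.82 in Control A and B, and it was above background on all 4 arrays. Genotype and sex cannot be told apart. The cKO arrays were also brighter: of the 278 probes of the rule, 180 and 183 were above background on cKO A and B, and 168 on each Control array. Before normalization the median intensity of the kept probes was 160 on cKO A, 183 on cKO B, 113 on Control A and 92.2 on Control B. Brightness and genotype cannot be told apart either, and all values below follow quantile normalization. The bead standard error of the kept probes was a median of 4.31% to 4.40% of the signal on 3 arrays and 7.63% on Control B. Of 7 macrophage markers on the array 4 were tested, and their summed signal was 126 and 122 in the cKO lenses and 100 and 104 in the Control lenses. C1qb and Cd68 were above background on both cKO arrays and on no Control array, at least 1.22-fold and 1.26-fold higher, and entered the test only through the cKO arrays. The difference in the summed signal came from C1qb and Cd68. Aif1 (-0.064) and Csf1r (-0.11) of the same list had overlapping groups. Of 5 vessel markers, Emcn was elevated by 1.12 ± 0.19. Cdh5 had 0.58 ± 0.18 without overlap but was not called (adjusted p = 0.082), while Kdr (-0.59), Tek (-0.26) and Pecam1 (-0.060) had changes below 0 that were not called. The median of the vessel list was -0.060, and its summed signal was 265 and 260 against 244 and 239. Adgre1, C1qa and Lyz2 of the macrophage list were not above background on 2 arrays. Of 8 retina, 5 blood and 5 muscle markers, 1, 2 and 0 were tested and none was called. The retina marker tested, Pde6b, was above background on both cKO arrays and on no Control array, at least 1.10-fold higher. It too was tested only through the cKO arrays. The part of other cells in the values below was not tested. In whole lenses, fewer cells of a type and less RNA per cell cannot be told apart.

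A gene was called elevated or reduced where its adjusted p was under 0.05 (limma, Benjamini-Hochberg over all 11511 genes), its log2 fold change was beyond 0.58 in either direction and its mean log2 signal exceeded 4.6. Fold changes are cKO minus Control on the log2 scale, each with its standard error. Of the 119 trafficking genes, 10 were elevated and 5 were reduced. This is 12.6% of the genes, beside 11.6% of all genes (6.00% elevated and 5.64% reduced). The elevated genes were Rab29, Snx16, Snx4, Rab24, Snx14, Sec22b, Vps37d, Rab2a, Rab3gap2 and Snx6. The reduced genes were Rab32, Rab3b, Snx11, Vps37a and Vps8. The changes ran from -1.27 (Rab32) to 0.96 (Rab29), and the median over all 119 was 0.051, against 0.0097 over all genes. The change was above 0 in 64 of the 119 genes, beside 51.1% of all genes. The split depended on the scaling of the arrays. With each array only set to the same median, 68 of these genes were called higher and 2 lower, around a median of all genes that itself lay at 0.53, and with the median set over probes detected on all 4 arrays the split was 12 and 9.

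**Figure D1:**
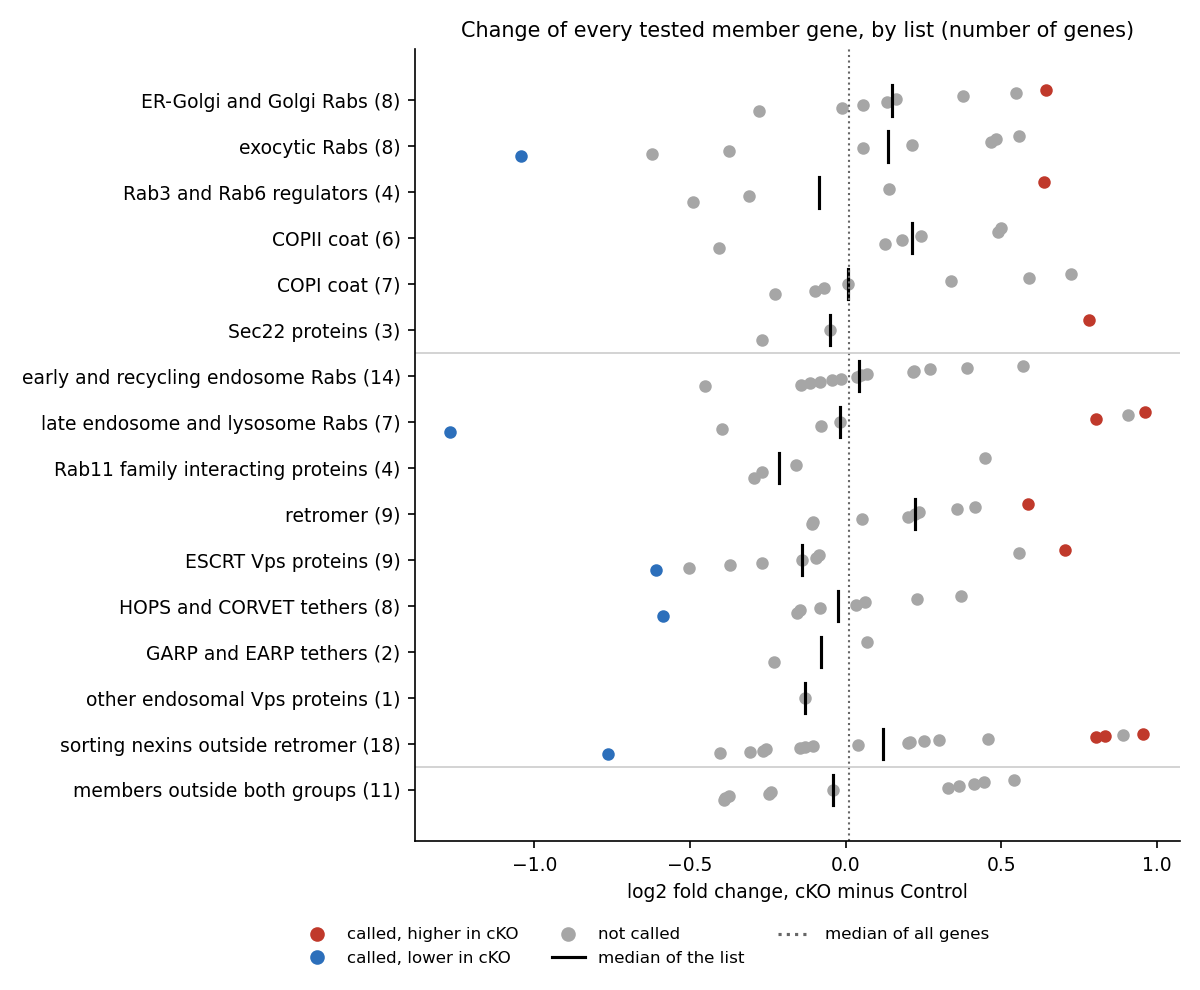
Log2 fold change (cKO minus Control) of each of the 119 genes, one row per list with the number of genes in brackets; secretory lists stand above the upper line, endosomal lists between the lines. Red and blue points are the 10 elevated and 5 reduced genes, grey points were not called, black bars are list medians and the dotted line is the median of all genes. The called genes lie on both sides of 0 and are spread over 9 lists; 5 genes above background in 1 group only are drawn at fitted values.

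The secretory group (Rabs of the endoplasmic reticulum, Golgi and exocytosis, their regulators, COPI, COPII and Sec22) had 36 tested genes of 48 on the array. Of these 3 were elevated and 1 was reduced (11.1%, beside 11.6% of all genes), with a median change of 0.14. The endosomal group had 72 tested genes of 84. Of these 7 were elevated and 4 were reduced (15.3%, beside 11.6% of all genes), with a median of 0.0091. The other 11 tested genes belong to neither group and none was called by limma. An unadjusted p under 0.05 was found for 6 of them, of which 3 were above background in 1 group only, beside 31.9% of all genes. The values of cKO and Control lenses did not overlap for 17 secretory genes with cKO higher and 10 with cKO lower. In the endosomal group these counts were 26 and 18. Among all genes, 62.3% did not overlap (32.6% with cKO higher and 29.7% with cKO lower). Of the tested genes, 5 were above background in 1 group only, and with these set to the bounds given below the medians were the same. The difference between the secretory and the endosomal group was not tested. The gap between their medians was smaller under some other scalings of the arrays, given below.

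**Figure D2:**
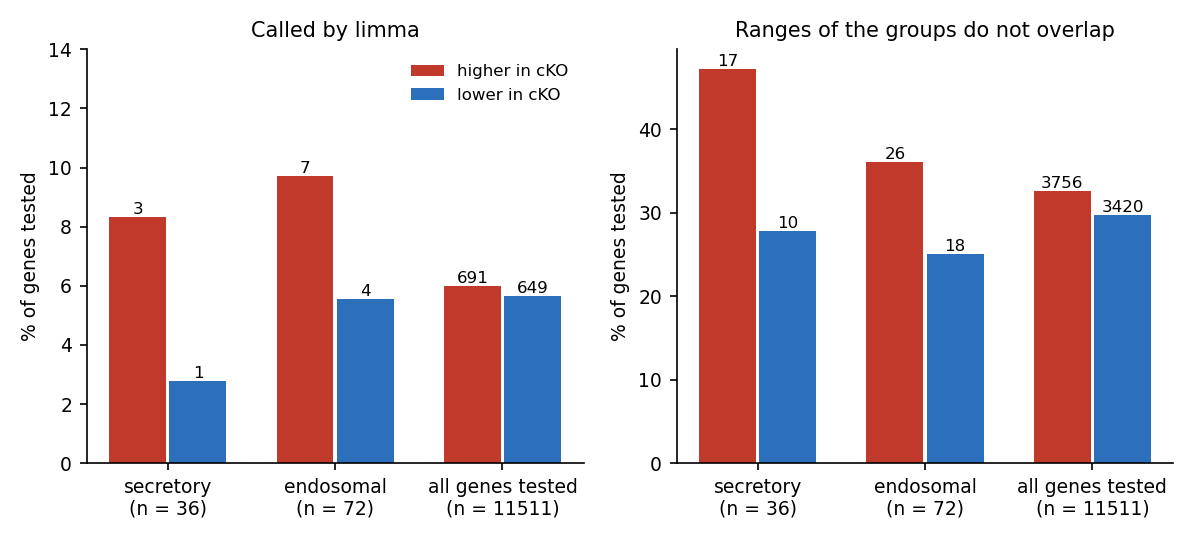
Share of genes tested (%, vertical axes from 0) in the secretory group, the endosomal group and all genes, called by limma (left) or with no overlap between the cKO and Control values (right). Numbers on the bars count genes. Elevated genes outnumbered reduced ones in the secretory group (3 to 1), the endosomal group (7 to 4) and all genes (691 to 649). Over all 119 genes the split depended on the scaling of the arrays.

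In the early secretory pathway, Rab2a and Sec22b were elevated. Rab2a, a Rab of the membranes between endoplasmic reticulum and Golgi, had a log2 signal of 11.08 and 11.14 in cKO A and B and 10.58 and 10.34 in Control A and B. Both cKO lenses were above both Control lenses, and the change was 0.64 ± 0.15 (1.56-fold, adjusted p = 0.037). Sec22b is the SNARE protein that serves fusion between these same compartments. Its log2 signal was 9.86 and 9.72 in cKO A and B and 8.98 and 9.04 in Control A and B. The groups were well apart, with a change of 0.78 ± 0.14 (1.72-fold, adjusted p = 0.020). This value averages 2 probes, and the 1 that met the naming rule had 0.94 when fitted singly. The related genes had other values, -0.27 ± 0.15 for Sec22a and -0.05 ± 0.13 for Sec22c (adjusted p = 0.28 and 0.83). Of 8 Rabs of the endoplasmic reticulum and Golgi, Rab2a alone was called (12.5%, beside 11.6% of all genes). Rab1a and Rab1b, which act at the exit from the endoplasmic reticulum, had changes of -0.28 ± 0.14 and -0.01 ± 0.14.

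No coat subunit was called by limma. Of 7 COPI subunits tested, 3 had an unadjusted p under 0.05, and likewise 3 of 6 COPII genes, Sec24d among them, which was above background on no Control array. The share of all genes was 31.9%. In the COPI coat, Copb2 had a log2 signal of 11.10 and 10.76 in cKO A and B and 10.48 and 9.93 in Control A and B, a change of 0.72 ± 0.22 (adjusted p = 0.071). Its groups did not overlap, but the Control lenses lay further apart than the cKO lenses did. Copa, another subunit of the outer layer of this coat, had a change of 0.59 ± 0.17 (adjusted p = 0.061). The subunits of the inner layer differed in sign, with -0.23 ± 0.14 for Copg1, -0.07 ± 0.18 for its paralog Copg2, -0.10 ± 0.15 for Copz1 and 0.34 ± 0.14 for its paralog Copz2, whose groups did not overlap (adjusted p = 0.14). Cope, the third outer subunit, had 0.01 ± 0.14 (adjusted p = 0.98), with a 95% interval from -0.33 to 0.34.

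In the COPII coat, Sec23a of the inner layer had a log2 signal of 6.85 and 6.92 in cKO A and B and 6.33 and 6.47 in Control A and B. The change of 0.49 ± 0.14 was under the fold threshold (adjusted p = 0.062). Among the cargo-binding Sec24 proteins, Sec24b had 0.13 ± 0.16 and Sec24c 0.24 ± 0.14. Sec24d was above background on both cKO arrays and on neither Control array, at least 1.12-fold higher in the cKO lenses. It entered the test only through the cKO arrays. Its change turned negative, as given below, with arrays aligned by the median of the probes above background on all of them. The median of all genes was then also below 0. Sec31a, of the outer cage, had the opposite sign, -0.41 ± 0.15 (adjusted p = 0.11). Sec24a and Sec31b were not tested.

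The promoters of 3 of these coat genes held the unfolded protein response element TGACGTGG, to which the stress factors XBP1 and ATF6 can bind. They are shown to set the sequence beside the values of these coat genes. The window was 250 bases before to 50 after a RefSeq start (GRCm38.p6), read on both strands, and 96 of the 119 genes had at least 1 such window. Shares are of genes with a match in any of their windows. The element was in 3.12% of these 96 genes and in 0.714% of all 27025 genes with a window, expressed in the lens or not. Counted by window, it was in 2.48% of 121 and in 0.676% of 32851. Capitals mark the match.

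Copb2, chr9:98563699-98563755, + strand: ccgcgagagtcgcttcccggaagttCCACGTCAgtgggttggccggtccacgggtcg

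Sec23a, chr12:59011993-59012036, - strand: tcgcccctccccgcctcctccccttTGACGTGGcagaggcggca

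Sec24d, chr3:123267445-123267502, + strand: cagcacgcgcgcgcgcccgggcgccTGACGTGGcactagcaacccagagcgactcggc

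The match of Copb2 is on the opposite strand. A match is a description of the sequence, and none of these 3 genes was called. The shorter XBP1 core GCCACGT, which can overlap this element, was in 13 of the 96 genes (13.5%, against 2.95% of all genes with a window). Of these 13 genes 2 were elevated (Rab24 and Rab29), beside 6.00% of all genes tested, and the 13 changes ran from -0.49 to 0.96. The endoplasmic reticulum stress element, CCAAT and CCACG with 9 bases between them, was in none of the 96 and in 0.137% of all genes with a window.

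In the late secretory pathway, Rab3b was reduced. Rab3 proteins act in regulated exocytosis. Rab3b had a log2 signal of 4.73 and 4.47 in cKO A and B and 5.42 and 5.86 in Control A and B. It was not above background in cKO B and lay near the lowest signal above background in cKO A. Its change, at fitted values, was -1.04 ± 0.19 (2.06-fold lower, adjusted p = 0.021). Its paralog Rab3d had -0.62 ± 0.26 (adjusted p = 0.15) and Rab3a 0.48 ± 0.18 (adjusted p = 0.11). Rab8a and Rab8b, which carry Golgi cargo to the plasma membrane, had opposite signs, -0.38 ± 0.13 and 0.47 ± 0.15. Rab27a had 0.06 ± 0.15 (95% interval from -0.31 to 0.42), and Rab27b was not tested.

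Rab3gap2, a subunit of the complex that switches off Rab3 and activates Rab18, was elevated. Its log2 signal was 7.29 and 7.44 in cKO A and B and 6.82 and 6.64 in Control A and B, with a change of 0.64 ± 0.15 (1.56-fold, adjusted p = 0.038). In people, mutations of the genes for both subunits of this complex, for Rab18 and for the GTPase-activating protein Tbc1d20 cause Warburg Micro syndrome, in which cataract is present at birth. These genes were put together after their values were seen. The catalytic subunit Rab3gap1 had 0.14 ± 0.15 (adjusted p = 0.57). Rab18, a Rab of the endoplasmic reticulum and lipid droplets, had 7.65 and 7.66 in cKO A and B and 7.24 and 6.98 in Control A and B, a change of 0.55 ± 0.15 just under the fold threshold (adjusted p = 0.058). Tbc1d20 had 7.28 and 7.20 against 8.06 and 7.68, a change of -0.63 ± 0.17 (adjusted p = 0.055). Of these genes, Rab3gap2 alone was called.

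**Figure D3:**
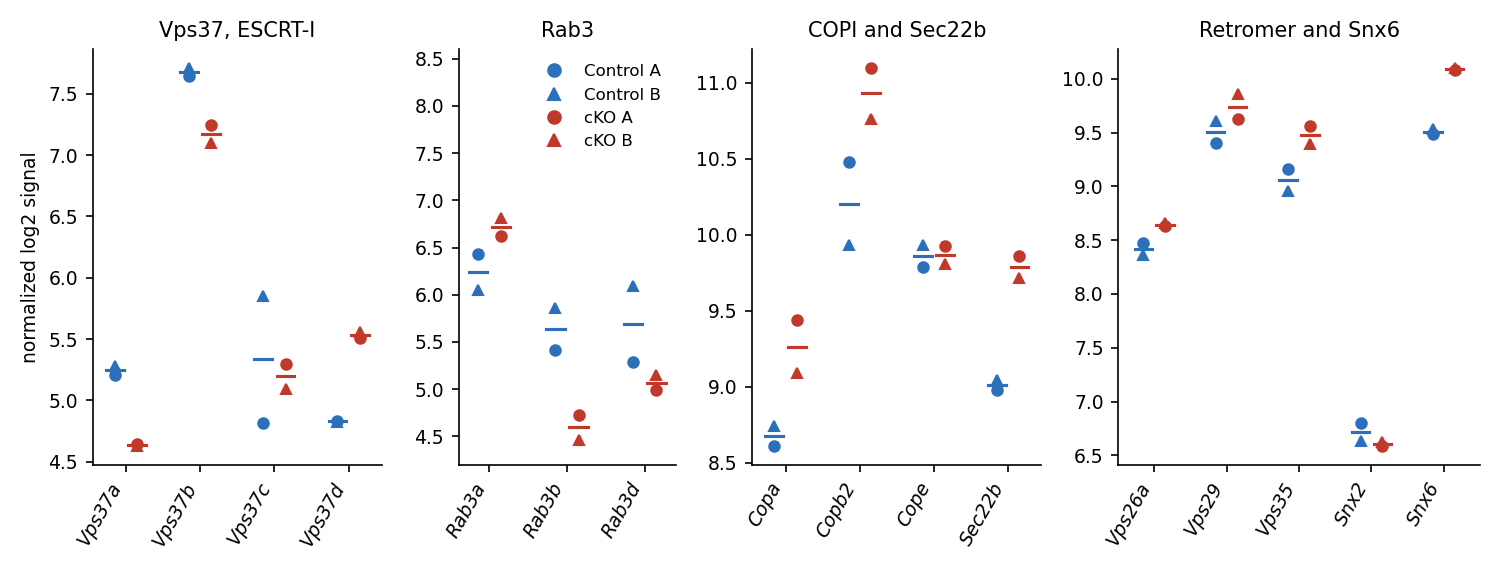
Normalized log2 signal of single lenses (Control blue, cKO red, replicate A circles and B triangles, bars are group means, axes do not start at 0) for the Vps37 subunits, the Rab3 proteins, COPI subunits with Sec22b, and retromer with Snx6. Vps37a and Rab3b were reduced while Vps37d, Sec22b and Snx6 were elevated; comparisons are between lenses for 1 gene, since signals of different probes are not on 1 scale.

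Of 7 Rabs of late endosomes and lysosomes, 3 were called (42.9%, beside 11.6% of all genes). Rab32 had the largest reduction of all 119 genes. It serves lysosome-related organelles such as melanosomes, and lysosomes. Its log2 signal was 5.84 and 5.64 in cKO A and B and 7.08 and 6.95 in Control A and B. The change of -1.27 ± 0.15 (2.41-fold lower, adjusted p = 0.0062) was many times the difference within either group. Rab38, its close relative in melanosome transport, was above background on both cKO arrays and neither Control array, and was at least 1.56-fold higher, with log2 signals of 4.86 and 5.90 in cKO A and B. Like Sec24d, it entered the test only through the cKO arrays. The bound rests mainly on cKO B, since cKO A lay near the lowest signal above background. Another probe of Rab38, which was not kept, was above background on cKO B alone. Of 6 pigment cell markers, Pmel alone was above background on at least 2 arrays, with a change of -0.40 ± 0.22 (adjusted p = 0.25).

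Rab29 and Rab24 were elevated. Rab29, which binds the kinase LRRK2 at Golgi and lysosomal membranes, had 6.43 and 6.70 in cKO A and B and 5.71 and 5.51 in Control A and B, a change of 0.96 ± 0.16 (1.95-fold, adjusted p = 0.017). Rab24, linked to late steps of autophagy, had 8.75 and 8.95 against 8.08 and 8.01, a change of 0.81 ± 0.14 (1.75-fold, adjusted p = 0.020). All 3 probes of Rab24 were called when fitted singly, at 0.73, 0.73 and 0.96. Rab7, the main Rab of late endosomes, had -0.08 ± 0.14 (adjusted p = 0.72), but its 3 probes ran from -0.53 to 0.35.

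The early endosome and recycling Rabs had no call by limma among 14 genes. An unadjusted p under 0.05 was found for 3 of the 14, beside 31.9% of all genes. Rab5a, Rab5b and Rab5c direct fusion of early endosomes. Rab5a had 7.90 and 8.06 in cKO A and B and 8.46 and 8.39 in Control A and B, without overlap, and a change of -0.45 ± 0.14 (adjusted p = 0.078). Rab5b had -0.12 ± 0.15 and Rab5c 0.04 ± 0.14. Rab11a and Rab11b direct recycling to the plasma membrane, with 0.57 ± 0.19 (adjusted p = 0.094) and 0.22 ± 0.14. Of the 4 Rab11 interacting proteins, none was called by limma and 1 was under an unadjusted p of 0.05, Rab11fip5 at 0.45 ± 0.14.

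The CLEAR element, to which the lysosomal regulator TFEB binds, was searched as TCACGTGA with a G before and a C after it, and was in the promoter windows of 6 of the 96 genes (6.25%), against 0.370% of all genes with a window. Counted by window, the shares were 5.79% of 121 and 0.326% of 32851. The letters TCACGTGA without the outer bases were in 7 of 96 (against 1.12%), and the E-box CACGTG inside them in 13 of 96 (against 8.09%). The 6 genes were endosomal. They are shown because, of the 9 motifs searched, this one had the largest ratio of its share among these genes to its share among all genes with a window.

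Rab5a, chr17:53479112-53479171, + strand: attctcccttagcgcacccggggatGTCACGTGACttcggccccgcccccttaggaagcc

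Rab21, chr10:115315589-115315648, - strand: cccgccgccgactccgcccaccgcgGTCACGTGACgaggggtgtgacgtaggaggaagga

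Rab24, chr13:55321956-55322005, - strand: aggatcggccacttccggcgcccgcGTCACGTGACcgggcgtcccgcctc

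Vps16, chr2:130424275-130424334, + strand: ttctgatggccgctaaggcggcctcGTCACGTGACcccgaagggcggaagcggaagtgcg

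Vps33a, chr5:123572995-123573054, - strand: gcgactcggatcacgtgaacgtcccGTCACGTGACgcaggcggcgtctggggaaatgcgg

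Vps26a, chr10:62486717-62486776, - strand: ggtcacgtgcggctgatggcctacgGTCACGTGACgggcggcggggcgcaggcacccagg

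Vps26a had a second match in the window of another start. The letters in capitals read the same on both strands. The genes with this element did not move together. Rab24 was elevated (1 of 6, beside 6.00% of all genes tested), and the other 5 were not called, with changes from -0.45 (Rab5a) to 0.22 (Vps26a). The other motifs searched were TGACGTCA (4 of 96, 4.17%, against 2.03%), TGATGNAAT (2 of 96, 2.08%, against 1.08%) and TTGCATCA (none of 96, against 1.03%), and no gene with 1 of these was called.

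In the retromer coat, which returns receptors from endosomes to the Golgi, Snx6 was elevated and no other gene of 9 was called (11.1%, beside 11.6% of all genes). Snx6 had 10.09 and 10.10 in cKO A and B and 9.49 and 9.53 in Control A and B. The change of 0.58 ± 0.13 (1.5-fold, adjusted p = 0.037) lay at the fold threshold. The subunits of the cargo-binding core had smaller changes, 0.42 ± 0.15 for Vps35 (adjusted p = 0.11), 0.23 ± 0.16 for Vps29, 0.22 ± 0.14 for Vps26a and 0.05 ± 0.14 for Vps26b. Snx1 and Snx2, which deform the membrane in pairs with Snx5 or Snx6, had 0.36 ± 0.24 and -0.11 ± 0.14, and Snx5 was not tested. The median of the 9 genes was 0.22.

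Sorting nexins outside retromer held 4 of the 15 calls among 18 tested genes (22.2%, beside 11.6% of all genes). Snx16, which binds early and late endosomes, had 6.20 and 6.35 in cKO A and B and 5.42 and 5.22 in Control A and B, a change of 0.95 ± 0.15 (1.94-fold, adjusted p = 0.014). Snx4, of recycling endosomes and autophagy, had 8.97 and 8.91 against 8.34 and 7.87, a change of 0.83 ± 0.18 (1.78-fold, adjusted p = 0.034). In Snx4 and in the next gene the Control lenses differed more than the cKO lenses did. Snx14, a protein of contacts between endoplasmic reticulum and lipid droplets, had 6.55 and 6.71 against 6.06 and 5.58, a change of 0.80 ± 0.19 (1.75-fold, adjusted p = 0.040). Its 3 probes had 0.61, 0.80 and 1.0. Snx11, made of little more than a PX domain, was reduced. It had 8.86 and 8.67 in cKO A and B and 9.68 and 9.38 in Control A and B, a change of -0.76 ± 0.16 (1.70-fold lower, adjusted p = 0.031). The sign of the changes in Snx11 and Vps8 depended on the scaling, at 0.066 and 0.15 when each array was only set to the same median. The median of all genes was then 0.53, and less that median both changes stayed below 0. Snx18, of endocytosis and autophagy, had -0.26 ± 0.14 (adjusted p = 0.27).

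The ESCRT machinery sorts ubiquitylated membrane proteins into vesicles inside the endosome, and its Vps37 subunits are alternatives for 1 place in the ESCRT-I complex. Vps37a was reduced, with 4.65 and 4.63 in cKO A and B and 5.21 and 5.28 in Control A and B, a change of -0.61 ± 0.13 (1.52-fold lower, adjusted p = 0.034). Vps37d was elevated, with 5.51 and 5.56 against 4.84 and 4.82, a change of 0.70 ± 0.13 (1.63-fold, adjusted p = 0.023). Both had lens-to-lens differences under 0.1 within each group. The lowest signal above background was 4.59 and 4.56 on cKO A and B and 4.72 and 4.76 on Control A and B. Vps37a in the cKO lenses and Vps37d in the Control lenses lay near this level. The other alternatives had -0.50 ± 0.14 for Vps37b (adjusted p = 0.060) and -0.14 ± 0.31 for Vps37c, whose Control lenses lay far apart at 4.82 and 5.85. Vps28, a constant subunit of ESCRT-I, had -0.10 ± 0.14. Vps4a, the ATPase that takes the machinery apart, had -0.27 ± 0.14 (adjusted p = 0.24), and its paralog Vps4b was not tested.

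Vps8, a subunit of the early endosome tether CORVET, was the only called gene of 8 in the tether complexes HOPS and CORVET (12.5%, beside 11.6% of all genes). It had 6.93 and 6.77 in cKO A and B and 7.42 and 7.45 in Control A and B, a change of -0.59 ± 0.14 (1.5-fold lower, adjusted p = 0.041). Its 2 probes had -0.75 and -0.42, and the first alone was called. The core subunits of both complexes were not called, with -0.15 ± 0.16 for Vps16, 0.03 ± 0.25 for Vps11, -0.08 ± 0.14 for Vps33a and 0.37 ± 0.21 for Vps18, whose cKO lenses lay above both Control lenses. The Golgi tether subunit Vps53 had 0.07 ± 0.14, and Vps45, which assists SNARE fusion at endosomes, had -0.13 ± 0.14.

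**Figure D4:**
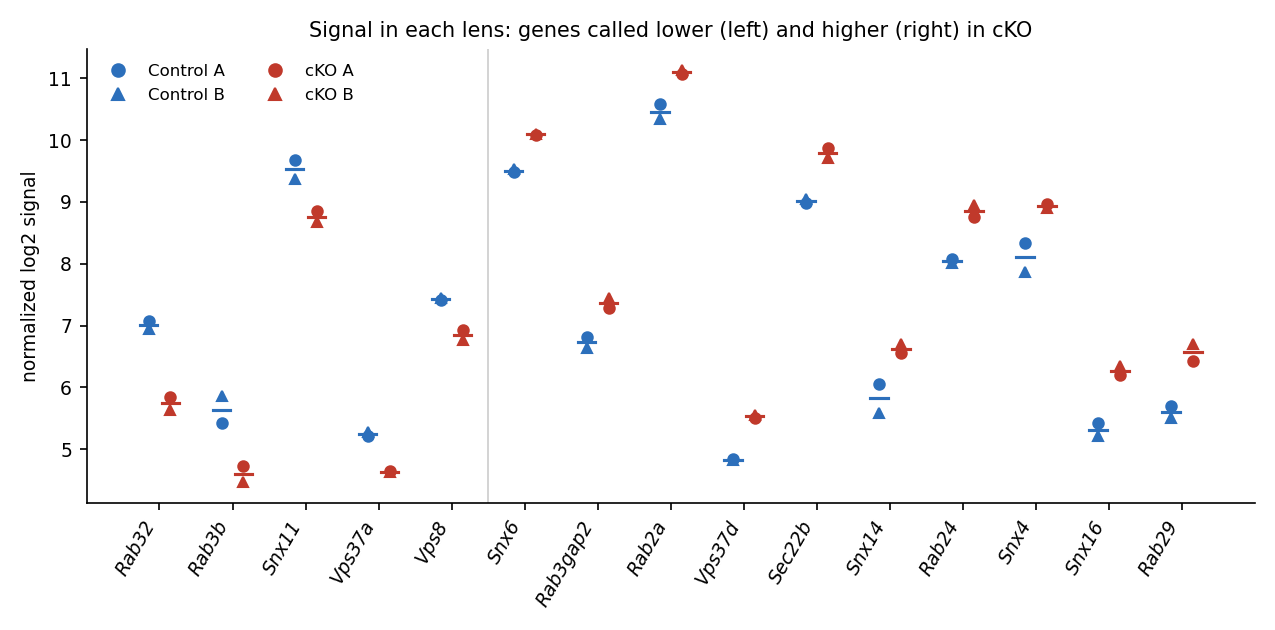
Normalized log2 signal of single lenses for the 5 reduced genes (left) and the 10 elevated genes (right), with Control in blue, cKO in red, replicate A as circles, B as triangles and group means as bars; the vertical axis does not start at 0. In all 15 genes the cKO and Control lenses do not overlap; Rab32 shows the largest distance, from 5.84 in the higher cKO lens to 6.95 in the lower Control lens.

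Among the 11 genes outside both groups, changes ran from -0.39 to 0.54. Rab40c, which works with a ubiquitin ligase, had 0.33 ± 0.17 (adjusted p = 0.24). Rab39 was above background on both Control arrays and on no cKO array, at least 1.25-fold lower in cKO. Vps13a and the antisense transcript Copg2as2 were above background on no Control array, at least 1.04-fold and 1.15-fold higher. Their changes turned negative, to -0.25 and -0.14, with arrays aligned by the median of the probes above background on all of them, where the median of all genes was -0.19. These genes entered the test only through the group in which they were above background. Vps72, a chromatin protein that shares only the name, had -0.39 ± 0.18 (adjusted p = 0.19).

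Partners of these genes that the naming rule does not reach were counted from separate lists. In the membrane fusion machinery, 4 of 28 tested genes were elevated and 1 was reduced (17.9%, beside 11.6% of all genes). Nsf, the ATPase that separates SNARE proteins after fusion, had 8.18 and 8.25 in cKO A and B and 7.22 and 7.03 in Control A and B, a change of 1.09 ± 0.14 (adjusted p = 0.0090). The SNARE genes Stx4a, Snap29 and Vamp7 were elevated by 1.15 ± 0.21, 0.80 ± 0.16 and 0.67 ± 0.14, and the endosomal syntaxin Stx12 fell by 0.83 ± 0.15. Of 22 genes of clathrin and its adaptors, 3 were elevated (13.6%, beside 6.00% of all genes), Ap1m1 (0.89 ± 0.13), Cltb (0.83 ± 0.19) and Gga2 (0.71 ± 0.14), all of which take part in clathrin coats. Of 26 partners of vesicle budding, the cargo receptor Lman1 was elevated (0.69 ± 0.17, adjusted p = 0.047) and no other was called (3.85%, beside 11.6% of all genes). None of 19 Rab cycle enzymes and none of 15 further ESCRT genes was called, with 6 and 2 at an unadjusted p under 0.05 (31.9% of all genes).

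How many calls remained depended on which lens was left out. With Control A left out, 12 of the 15 genes were still called, and Snx6, Snx11 and Vps8 were not. With cKO A left out 4 remained (Rab29, Rab32, Rab3b and Snx16), with Control B left out 1 (Rab32), and with cKO B left out 0 by limma, with 22 of 114 genes at an unadjusted p under 0.05. Without cKO B the lowest adjusted p among the 15 was that of Rab32, at 0.051, with a change of -1.14. The signs did not turn in any of these fits. Without 1 lens the change ran from -1.38 to -1.14 for Rab32, from -1.31 to -0.84 for Rab3b, from 0.80 to 1.08 for Rab29, from 0.84 to 1.08 for Snx16 and from 0.71 to 0.85 for Sec22b. Less the median of all genes, all 15 changes kept their sign under each of 14 other ways of processing, as far as the gene could be fitted on its own.

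**Figure D5:**
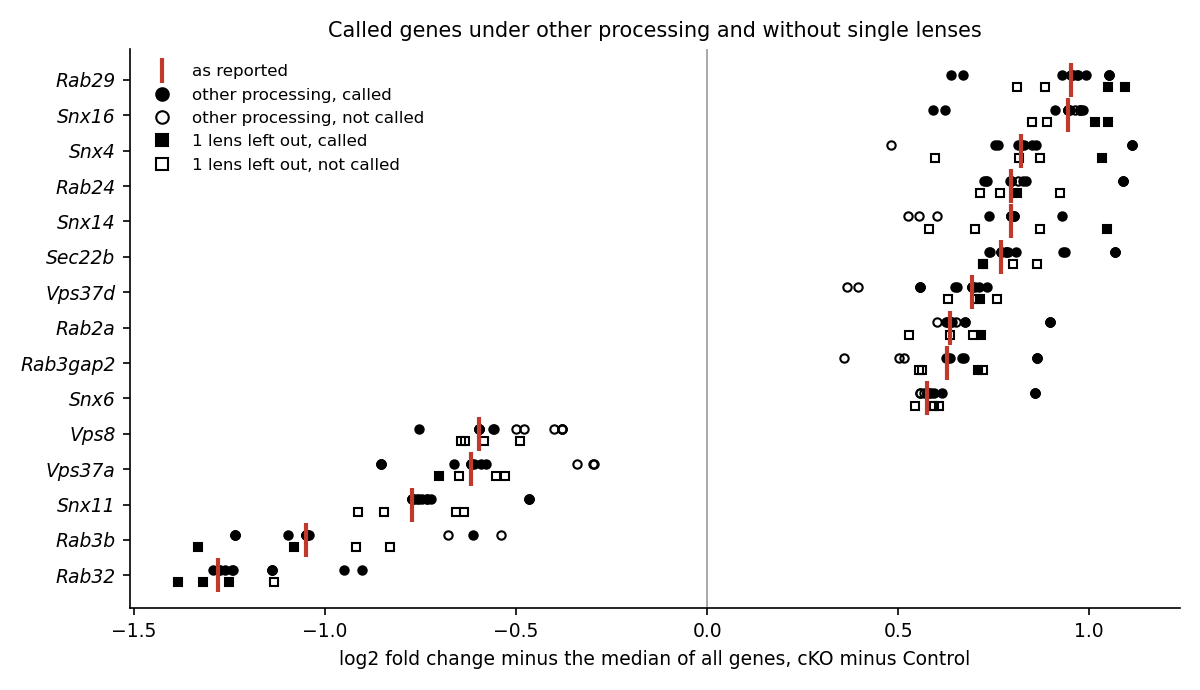
Log2 fold change minus the median of all genes (horizontal axis) for the 15 called genes, as reported (red bars), under other processing (circles) and with 1 lens left out (squares); filled symbols were called and open ones were not. No point crosses 0; Rab32 stays between -1.39 and -0.90 and is the gene with the most filled squares, 3 of 4.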

How the data were processed

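The authors deposited unnormalized and rank-invariant normalized bead intensity (Illumina MouseWG-6 v2.0), with a detection p-value for each probe. Bead numbers and bead errors (entered as signal) were deposited beside them. Members and gene lists were chosen with earlier results of these data known. Symbols and detection p-values were read from the deposited normalized table. From the unnormalized intensity, 45263 probes were corrected with neqc of limma (version 3.58.1, R 4.3.3; offset 16, negative controls inferred from detection p-values), quantile normalized and expressed as log2 values. Probes whose detection p was under 0.05 on at least 2 arrays were kept (16262), matched to RefSeq genes (GRCm38.p6 names; the files name no build) and averaged by gene. Groups were compared with lmFit and eBayes, two-sided, adjusted over 11511 genes. The fold and signal thresholds follow the study, whose edgeR model for counts was not applied to intensities. A gene not above background on either array of a group has a bound ("at least"), set by the lowest signal above background. The labels do not say whether lenses came from different animals, and p-values measure the spread between these lenses. An exact permutation test of 2 against 2 cannot go below p = 0.333. The number of arrays limits the precision. Named genes were all called members, the member of highest Control signal in each list, the largest changes of each group and fixed paralog sets. Genes named besides these, and the 9 promoter motifs, were chosen after values were seen. Python was version 3.11.15.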

Additional observations from a re-analysis of the deposited data

How the results depend on the processing

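As reported, 15 trafficking genes were called, 4 secretory and 11 endosomal, and the medians less that of all genes were 0.13 and -0.00065. Counts stayed within 1.5 times with the deposited normalized table (11), cyclic loess (15), detection on all 4 arrays (15 of 109), the brightest probe (17), single probes (19 of 182 probes), the naming rule's own probes (15) and a trended robust variance (16). Without background correction 9 genes were called (6 endosomal, and 3 secretory), and with normexp at offset 50, 8 (2 secretory, 6 endosomal). With each array set to the same median 70 were called (22 and 44), without normalization 73 (23 and 46), and with the median over probes detected on all 4 arrays 21 (9 and 11). The all-gene medians were then 0.53, 0.57 and -0.19, and less these the medians were 0.16 and 0.13 in each. With no detection filter 3 of 148 were called (0 secretory, 3 endosomal, with 20 and 28 at an unadjusted p under 0.05). With treat of limma against the fold threshold 0 were called (0 and 0), with 4 at an unadjusted p under 0.05. The secretory median was 0.17 with the deposited table, 0.097 without background correction, 0.093 with normexp, 0.028 without the filter, 0.16 with detection on all arrays and 0.062 for single probes. The endosomal median was 0.026 without the filter, 0.024 for single probes and 0.025 for the rule's own probes. Leaving out 1 lens gave 0 to 18 calls, 0 to 7 secretory and 0 to 10 endosomal, with medians from 0.098 to 0.17 and from -0.040 to 0.024. The causes of these shifts were not tested.

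Of the 15 called genes, Snx11 and Vps8 changed sign, to 0.066 and 0.15 with the same median for each array and to 0.10 and 0.19 without normalization. Both settings moved the median of all genes above 0, as given above, and turns of sign under them include that shift. Less that median, Snx11 and Vps8 stayed below 0. Of the 104 genes not called, 69 changed sign in 1 or more fits, 31 of them without 1 lens. Under both settings just named, 46 of the 50 that were negative turned positive, among them Rab1a (up to 0.28), Copz1 (up to 0.75), Copg1 (0.39 and 0.43), Copg2 (0.67 and 0.71), Rab5a (0.35 and 0.39), Rab5b (0.16 and 0.20), Rab8a (0.42 and 0.46), Snx18 (0.55 and 0.59), Vps16 (0.66 and 0.70), Vps28 (0.66 and 0.70), Vps45 (0.66 and 0.70) and Vps4a (0.53 and 0.56). With the median over detected probes, 12 of the 54 that were positive turned negative, among them Copg2as2 (-0.14), Vps13a (-0.25), Rab27a (-0.35), Sec24d (-0.081) and Vps26b (-0.37), as did Rab27a (-0.021), Cope (-0.030) and Vps26b (-0.034) with the deposited table, and Rab3gap1 (-0.15) without the filter. Copg1 was 0.047 with the brightest probe. Leaving out 1 lens gave -0.048 to 0.12 for Rab5c, with -0.017 without cKO A, -0.021 to 0.12 for Vps26b, with -0.013 without Control B, -0.066 to 0.082 for Cope, -0.22 to 0.024 for Copz1, -0.085 to 0.22 for Rab27a, -0.30 to 0.16 for Copg2 and -0.31 to 0.014 for Vps16.

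With the replicate letter as a replicate block, 18 genes were called (5 secretory, 13 endosomal), all 15 among them, and no call was lost. The letters share only a number: the difference between A and B in cKO lenses correlated with that in Control lenses at -0.011 over genes. The cKO arrays were brighter, and 11 kept probes of these genes (6.04%, beside 7.85% of all kept probes) were above background on both cKO arrays and neither Control array.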

Other observations

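Probes of the same gene differed in sign in several trafficking genes, which were chosen after their values were seen. The 4 probes of Rab6a, a Golgi Rab, had log2 fold changes of 0.56, -0.16, 0.63 and -0.39, and the average of the gene was 0.16. The 2 probes of Snx22 had -0.63 and 0.01, and those of Rab5b -0.46 and 0.23. The 3 probes of Snx2 had -0.08, 0.32 and -0.56. None of these probes was called by limma when fitted singly.

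Of the 182 kept probes, 11 (6.04%) were above background on both cKO arrays and on no Control array, beside 7.85% of all kept probes, and 2 (1.10%) on both Control arrays and on no cKO array, beside 0.984% of all kept probes.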
